A study of Mus musculus with 9 samples.

Results

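The genes described here are 49 members of the machinery that copies and then divides the chromosomes, out of the 56748 genes of a mouse RNA-seq count table. They were chosen by name, from the licensing of replication origins to the motors of the mitotic spindle, and each name was found in the table once. The libraries came from bone marrow hematopoietic stem cells (HSCs) of female C57BL/6 mice, sorted as Lin- Sca1+ c-Kit+ CD48- CD150+ cells, the SLAM gate. Young HSCs (yHSCs) came from mice of 6 to 10 weeks. HSCs of early aged mice of 14 to 16 months (paHSCs) were split by surface P-selectin, the adhesion molecule that Selp encodes, into Selp_low and Selp_high cells. Each of the 3 groups had 3 libraries, and neither the labels nor the methods give any of them a transgene or a treatment. Whether a library held 1 mouse or several was not stated, so p-values measure the spread between these libraries only. One question put to such groups is whether ageing or surface P-selectin goes with a different rate of division.

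Most HSCs in adult marrow rest outside the cell cycle, in G0, and divide rarely. A cell that enters the cycle first loads the Mcm2 to Mcm7 helicase onto its replication origins, then switches on cyclin E with Cdk2, builds nucleotides and copies its DNA in S phase, and lastly makes cyclin B with Cdk1, kinetochore proteins and spindle motors for mitosis. Transcription of the first set is known to be driven largely by E2F factors in late G1, and that of the second by the MuvB complex with B-MYB and FOXM1 in G2. In bulk RNA, more cycling cells and more transcript per cell cannot be told apart, and cycling cells of another type caught in the gate give the same transcripts.

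Promoter sequences are shown here for 6 members, as examples of the E2F matches of the helicase genes and of the CHR and CCAAT matches of the mitotic genes, which are explained next. The RefSeq promoter table (GRCm38.p6) held 40 of the 49 members, in 42 windows of 250 bases before and 50 after the start of a transcript; Cdc25c, Stmn1, Kif20a, Aurkb, Ccna2, Gins2, Tpx2, Mcm4 and Ccne2 were not in it. Each window was searched on both strands for an E2F motif (TTTCCCGC, TTTCGCGC, TTTGCCGC or TTTGGCGC), for the cell cycle homology region (CHR, TTTGAA or TTCGAA) and for the CCAAT box (CCAAT). The bases before the start are given 5′ to 3′ along the gene's strand, with every match in capitals. Overlapping matches run together, such as the paired E2F matches in the Mcm5 stretch, and on the opposite strand a CCAAT box reads ATTGG and TTTGAA reads TTCAAA. The first pair encode helicase subunits, Cdc20 and Ube2c serve the destruction of cyclin B, and Top2a and Hmgb2 act on chromosome structure.
Mcm5 (chr8:75109259-75109508, plus strand): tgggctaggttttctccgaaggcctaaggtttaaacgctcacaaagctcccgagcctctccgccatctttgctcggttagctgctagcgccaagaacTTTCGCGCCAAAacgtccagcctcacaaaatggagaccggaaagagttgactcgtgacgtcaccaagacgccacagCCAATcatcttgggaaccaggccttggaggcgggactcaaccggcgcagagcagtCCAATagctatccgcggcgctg
Mcm6 (chr1:128359706-128359955, minus strand): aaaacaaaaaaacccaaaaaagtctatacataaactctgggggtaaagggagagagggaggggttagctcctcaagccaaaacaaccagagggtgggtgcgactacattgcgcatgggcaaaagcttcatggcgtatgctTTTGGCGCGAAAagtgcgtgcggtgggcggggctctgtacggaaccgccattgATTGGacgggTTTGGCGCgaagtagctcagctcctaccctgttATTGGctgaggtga
Cdc20 (chr4:118437344-118437593, minus strand): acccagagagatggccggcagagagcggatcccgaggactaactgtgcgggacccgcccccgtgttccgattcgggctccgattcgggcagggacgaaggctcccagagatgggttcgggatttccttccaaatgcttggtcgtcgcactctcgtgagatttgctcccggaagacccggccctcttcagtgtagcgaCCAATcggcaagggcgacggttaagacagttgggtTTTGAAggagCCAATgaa
Ube2c (chr2:164769679-164769928, plus strand): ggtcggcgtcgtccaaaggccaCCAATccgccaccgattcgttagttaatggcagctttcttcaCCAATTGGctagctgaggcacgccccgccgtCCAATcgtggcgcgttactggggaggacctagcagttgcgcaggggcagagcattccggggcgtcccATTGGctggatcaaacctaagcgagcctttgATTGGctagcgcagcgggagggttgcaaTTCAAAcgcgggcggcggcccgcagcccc
Top2a (chr11:99024190-99024439, minus strand): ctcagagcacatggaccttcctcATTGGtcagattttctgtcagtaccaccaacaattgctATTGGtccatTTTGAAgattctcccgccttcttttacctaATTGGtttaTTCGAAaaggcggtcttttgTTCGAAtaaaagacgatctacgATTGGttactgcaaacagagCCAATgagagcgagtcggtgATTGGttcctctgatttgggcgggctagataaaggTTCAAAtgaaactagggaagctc
Hmgb2 (chr8:57511593-57511842, plus strand): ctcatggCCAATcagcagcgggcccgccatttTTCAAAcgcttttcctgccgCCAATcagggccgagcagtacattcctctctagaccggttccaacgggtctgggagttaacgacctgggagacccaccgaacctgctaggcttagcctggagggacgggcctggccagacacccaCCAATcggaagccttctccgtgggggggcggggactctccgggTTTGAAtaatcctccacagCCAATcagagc

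E2F motifs stood in 9 of the 42 windows (21.4%), against 2.26% of all 32817 promoter windows. Of those 9 windows, 6 belonged to the 10 windows of the replication origin and helicase genes. The other early genes held few, with 1 of 7 nucleotide supply and fork windows and 1 of 4 G1/S switch windows, as did the mitotic cyclin and kinase genes with 1 of 7. The CHR was found in 20 windows (47.6%, against 19.2% of all) and a CCAAT box in 33 (78.6%, against 37.4%). In the mitotic cyclin and kinase genes 6 of 7 windows held a CHR and 7 of 7 a CCAAT box, and in the origin and helicase genes 3 of 10 and 8 of 10. A CHR with at least 2 CCAAT boxes, a combination chosen after the matches were seen, stood in 14 member windows (33.3%) and in 2.31% of all windows. Top2a had 4 CHR and 6 CCAAT matches, and Hmgb2 had 2 and 4. These matches describe letters within a window and were not tested for binding.

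The 9 libraries held 24866975 to 35375310 counts assigned to genes. Levels below are CPM, read counts relative to library size after TMM scaling, which corrects for a few genes that take much of a library, and FPKM is the same value per kilobase of gene length. The 10 largest genes took 44.8% of Selp_low replicate 2 and 20.9% of Selp_low replicate 3, against 3.90% to 12.5% elsewhere. Selp itself followed the labels, at 20.5, 30.02 and 23.2 CPM in yHSC replicates 1 to 3, 109, 29.3 and 93.3 in Selp_low and 652, 265 and 264 in Selp_high. The gated markers did not stand equally in all libraries. Cd48, which the gate excludes, was at 174, 309 and 22.7 CPM in Selp_low replicates 1 to 3 and at 11.6 to 38.6 CPM in the other 6 libraries. Slamf1, which encodes the CD150 that the gate requires, was lowest in yHSCs, at 10.9, 15.2 and 19.3 CPM in replicates 1 to 3. It was at 66.3, 62.6 and 41.0 CPM in Selp_low and 198, 158 and 78.5 in Selp_high. Cd48, Flt3 and Cd34, listed for progenitors outside the gate, summed to 738, 1094 and 1540 CPM in yHSCs. Their sums were 386, 336 and 77.25 CPM in Selp_low and 102, 109 and 101 in Selp_high. The summed level of 11 HSC markers ran from 827 CPM in Selp_low replicate 3 to 3171 CPM in Selp_high replicate 1. The 12 transcripts of the neutrophil lineage summed to 65030, 13130 and 18870 CPM in yHSC replicates 1 to 3, 5199, 580 and 214700 in Selp_low and 6360, 1848 and 42550 in Selp_high. They were thus highest in yHSC replicate 1, Selp_low replicate 3 and Selp_high replicate 3 of their groups, with none of the list at 0 in any library. Transcripts of 11 B lineage genes summed to 5679 and 8039 CPM in Selp_low replicates 1 and 2 and to 72.2 to 574 CPM elsewhere.

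All 49 members were read in every library, with at least 90 counts. Gene positions below are those of the deposited table (mm39 per the labels) and span the whole gene, exons and introns. The members' mean level exceeded 1 FPKM for all 49 and 10 FPKM for 37. The per-length mean was highest for Stmn1 (483 FPKM), which destabilises microtubules, and Hmgb2 (336 FPKM), a DNA-bending chromatin protein. It was lowest for the kinetochore protein Cenpf (1.18 FPKM). Summed over the 49 genes, the level was 9731, 5165 and 5878 CPM in yHSC replicates 1 to 3, 4650, 5143 and 15376 in Selp_low and 3600, 5108 and 9583 in Selp_high. The group means were 6925 ± 2456 CPM for yHSCs, 8389 ± 6056 for Selp_low and 6097 ± 3112 for Selp_high (SD, n = 3 each). Libraries of 1 group therefore lay farther apart than the means of the groups, and the groups overlapped. Dividing by library totals alone lowered Selp_low replicate 2 to 2801 CPM, below Selp_high replicate 1 at 3939 CPM, and left Selp_low replicate 3 highest at 12069 CPM, near yHSC replicate 1 at 11561 CPM.

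**Figure D1:**
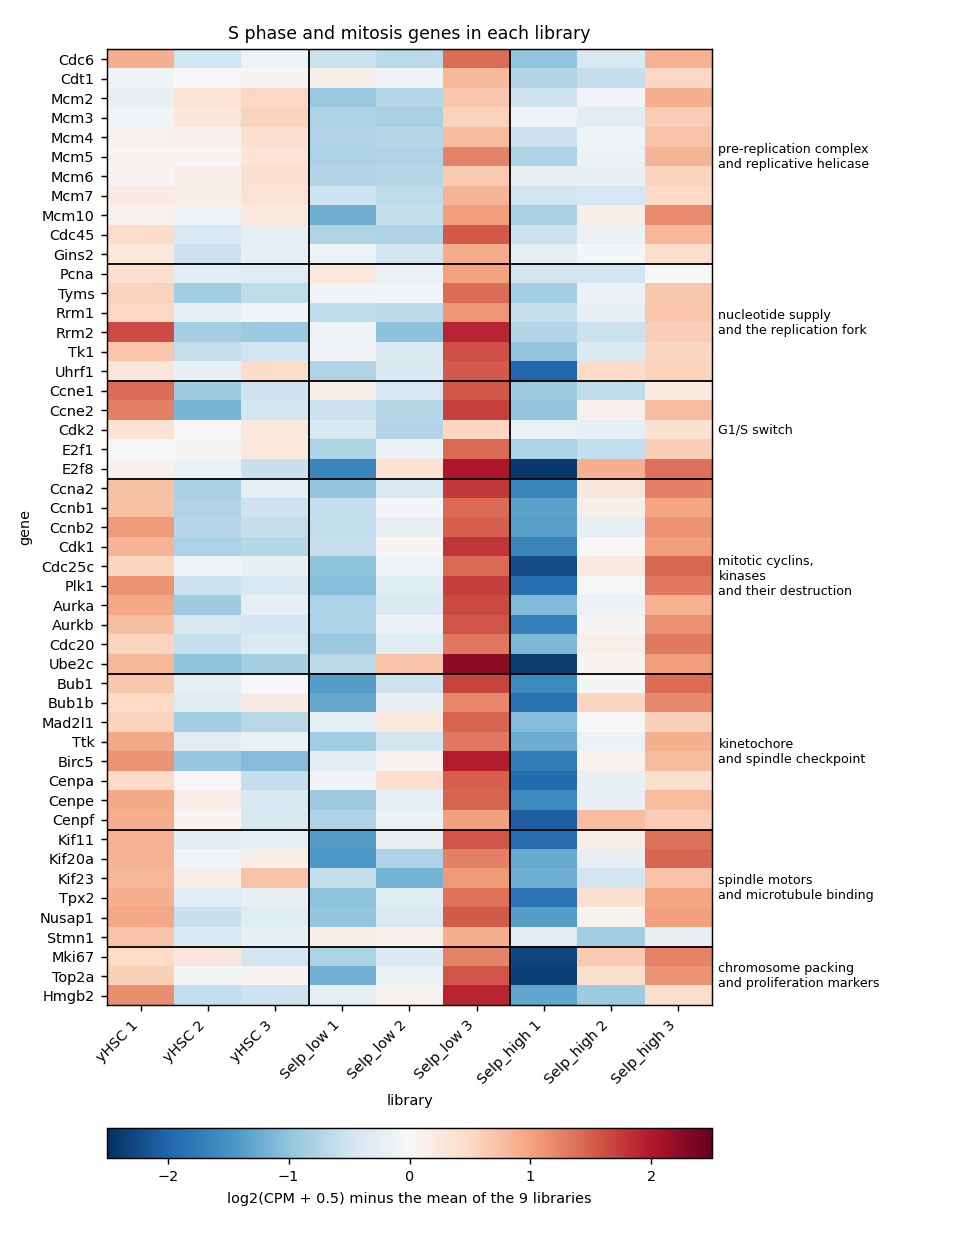
Level of each of the 49 genes (rows, grouped by role) in each of the 9 libraries (columns, 3 per group), as log2(CPM + 0.5) minus the gene's mean over the libraries; red is above and blue below that mean. On this TMM scale Selp_low replicate 3 holds the highest value of 43 genes and Selp_high replicate 1 the lowest of 33; with library totals alone they hold 18 and 22.

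Within a group the same library led for most members, whereas the order across groups moved with the scaling. Under TMM scaling Selp_low replicate 3 held the highest level of 43 members, against 13.9% of 18598 genes tested in all 3 comparisons, and Selp_high replicate 3 held the other 6. With library totals alone Selp_low replicate 3 was highest for 18 members (5.03% of all genes), Selp_high replicate 3 for 17 and yHSC replicate 1 for 14. Selp_high replicate 1 was lowest for 33 members under TMM scaling, against 15.8% of all genes. With library totals alone it was lowest for 22, and Selp_low replicate 2 for 27, against 11.2% and 48.0% of all genes. Within Selp_low, replicate 3 was highest for 49 of 49 members, and within Selp_high, replicate 3 was highest for 48 (49 and 47 with library totals alone). Within yHSCs, replicate 1 was highest for 39 members and replicate 3 for 10. The median within-group SD of the members on the log2 scale was 0.582 in yHSCs, 1.15 in Selp_low and 0.975 in Selp_high, while the median over all genes was 0.389, 0.353 and 0.427. The library that led in each group was also the one with the most neutrophil transcripts. The part of those transcripts in the members' levels was not tested beyond the values with and without these libraries given below.

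Origin licensing and helicase genes varied least under TMM scaling. That ranking was not made with library totals alone, which lower Selp_low replicate 2, a library of TMM factor 0.545. The 11 of them summed to 1915, 1994 and 2364 CPM in yHSC replicates 1 to 3, 1126, 1121 and 3266 in Selp_low and 1362, 1566 and 2903 in Selp_high, a span of 2.91-fold. Their lowest libraries were mostly Selp_low replicates 1 and 2, which held the minimum of 7 of the 11, and with library totals alone replicate 2 held that of all 11. Cdt1 (chr8:123294754-123300293, plus strand), which loads the helicase onto origins, stood at 54.7, 58.7 and 60.9 CPM in yHSC replicates 1 to 3, 65.3, 54.8 and 103 in Selp_low and 34.96, 38.7 and 84.05 in Selp_high. Mcm2 (chr6:88860456-88875762, minus strand), a helicase subunit, stood at 200.3, 289 and 325 CPM in yHSC replicates 1 to 3, 120.5, 139.8 and 365 in Selp_low and 158, 218 and 422 in Selp_high. Cdt1 was lowest in Selp_high replicates 1 and 2, while Mcm2 was lowest in Selp_low replicates 1 and 2, and in both genes replicate 3 lay above the other 2 libraries of each aged group. Mcm5 (chr8:75836197-75855067, plus strand), the subunit that closes the helicase ring against Mcm2, was read at 249.9, 248 and 308 CPM in yHSC replicates 1 to 3, 141, 145 and 579 in Selp_low and 139.9, 219 and 438 in Selp_high. Mcm6 (chr1:128259327-128287401, minus strand), the most abundant helicase subunit per length at 105.7 FPKM, was read at 489, 524 and 620.5 CPM in yHSC replicates 1 to 3, 282, 284 and 733 in Selp_low and 407, 412 and 687 in Selp_high. The highest and lowest yHSC libraries differed 1.24-fold for Mcm5 and 1.27-fold for Mcm6, those of Selp_low 4.09-fold and 2.60-fold, and those of Selp_high 3.13-fold and 1.69-fold. For Mcm7 (chr5:138162845-138170684, minus strand) the values were 299.8, 290.4 and 337 CPM in yHSC replicates 1 to 3, 182, 168 and 472 in Selp_low and 185, 194 and 369 in Selp_high. For Cdc45 (chr16:18599197-18630737, minus strand), the factor that activates the loaded helicase, they were 64.5, 35.3 and 38.7 CPM in yHSC replicates 1 to 3, 26.97, 26.8 and 134 in Selp_low and 31.8, 41.5 and 82.05 in Selp_high. Under TMM scaling the groups overlapped in each of these genes. Mcm7 and Cdc45 each share positions with a gene on the opposite strand that held over 10% as many counts, which the counting may not separate. Fold changes below compare 3 libraries with 3, and each p is edgeR's, adjusted over all genes tested. The Selp_high over Selp_low log2 fold change of Mcm2 was 0.35 ± 0.55 (SE, adjusted p = 0.826), that of Mcm6 0.21 and that of Cdt1 -0.51 ± 0.42 (SE, adjusted p = 0.658). Mcm3, Mcm4, Mcm10, Cdc6 and Gins2 ranged from 2.69-fold to 5.50-fold over the 9 libraries.

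Nucleotide supply and fork genes spanned 4.47-fold as a sum, at 1644, 692 and 766 CPM in yHSC replicates 1 to 3, 804, 662 and 2475 in Selp_low and 554, 802 and 1342 in Selp_high. Pcna (chr2:132091082-132095234, minus strand) encodes the sliding clamp of the DNA polymerases, and its values were 250.5, 153 and 149 CPM in yHSC replicates 1 to 3, 226, 168 and 376 in Selp_low and 134, 136 and 186 in Selp_high. Selp_high replicates 1 and 2 were below all other libraries, but replicate 3 lay above Selp_low replicate 2. Tyms (chr5:30263200-30278615, minus strand), the thymidylate synthase, was read at 149, 54.5 and 63.5 CPM in yHSC replicates 1 to 3, 94.05, 94.7 and 261 in Selp_low and 54.98, 90.4 and 159 in Selp_high. Rrm2 (chr12:24758240-24764145, plus strand), the regulated subunit of ribonucleotide reductase, was read at 613, 111 and 104 CPM in yHSC replicates 1 to 3, 182, 96.4 and 742 in Selp_low and 119, 136 and 302 in Selp_high. Rrm2 set yHSC replicate 1 and Selp_low replicate 3 far above the other 7 libraries, of which Selp_high replicate 3 was the highest. The Selp_high over Selp_low log2 fold change was -0.76 ± 0.35 (SE, adjusted p = 0.436) for Pcna, -0.57 ± 0.55 (SE, adjusted p = 0.702) for Tyms and -0.87 ± 0.77 (SE, adjusted p = 0.678) for Rrm2. All 6 members of the group, Rrm1, Tk1 and Uhrf1 among them, had negative values there and positive values for Selp_low over yHSCs under TMM scaling, none of which passed the test, and with library totals alone Rrm1 and Uhrf1 turned positive in the first comparison and Pcna, Rrm1, Rrm2 and Uhrf1 turned negative in the second.

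The 5 genes of the G1/S switch summed to 347, 197 and 233 CPM in yHSC replicates 1 to 3, 162, 170.4 and 547 in Selp_low and 149.6, 205 and 343 in Selp_high. Ccne1 (chr7:37797409-37806959, minus strand), the cyclin E that starts S phase with Cdk2, was read at 81.03, 16.1 and 20.97 CPM in yHSC replicates 1 to 3, 34.2, 22.5 and 90.2 in Selp_low and 16.1, 19.3 and 35.3 in Selp_high. E2f1 (chr2:154401327-154411812, minus strand), an activator of S phase genes, was read at 50.8, 53.6 and 61.1 CPM in yHSC replicates 1 to 3, 29.2, 45.8 and 136 in Selp_low and 29.3, 33.3 and 77.9 in Selp_high. Ccne1 stood high in yHSC replicate 1 and Selp_low replicate 3, and E2f1 in Selp_low replicate 3 and Selp_high replicate 3. E2f8 (chr7:48516177-48531344, minus strand), a repressor of the same targets made late in S phase, was read at 22.6, 18.6 and 14.1 CPM in yHSC replicates 1 to 3, 6.39, 26.9 and 85.9 in Selp_low and 3.51, 39.2 and 55.1 in Selp_high. Its 24.4-fold span between Selp_high replicate 1 and Selp_low replicate 3 was the second largest among the members. A gene model overlaps E2f8 on the opposite strand and held over 10% as many counts. Ccne1 had log2 fold changes of -1.06 ± 0.57 (SE, adjusted p = 0.497) for Selp_high over Selp_low and -0.81 ± 0.67 (SE, adjusted p = 0.949) for Selp_high over yHSCs. E2f8 had 0.77 ± 0.81 (SE, adjusted p = 0.985) for Selp_high over yHSCs and 1.11 ± 0.81 (SE, adjusted p = 0.703) for Selp_low over yHSCs.

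Mitotic cyclins, kinases and the genes of their destruction moved over a wider range, with a sum of 1315, 454 and 532 CPM in yHSC replicates 1 to 3, 438, 709 and 2342 in Selp_low and 257, 769.9 and 1640 in Selp_high. The span was 9.10-fold, and all 10 genes were lowest in Selp_high replicate 1 under TMM scaling, 8 of them also with library totals alone. Ccna2 (chr3:36619014-36626299, minus strand), cyclin A2, stood at 149, 50.7 and 75.8 CPM in yHSC replicates 1 to 3, 45.4, 68.05 and 303 in Selp_low and 27.98, 109 and 216 in Selp_high. Ccnb1 (chr13:100915158-100923078, minus strand), cyclin B1, stood at 192, 68.4 and 81.2 CPM in yHSC replicates 1 to 3, 76.95, 113 and 311 in Selp_low and 45.6, 128 and 229.9 in Selp_high. Ccnb2 (chr9:70314974-70328829, minus strand), cyclin B2 and the most abundant of the group per length at 84.3 FPKM, stood at 219, 62.8 and 68.4 CPM in yHSC replicates 1 to 3, 67.9, 90.98 and 295 in Selp_low and 40.05, 89.2 and 228 in Selp_high. In all 3 cyclins replicate 3 was highest and replicate 1 lowest of each aged group, and yHSC replicate 1 exceeded the next yHSC library by 1.97-fold to 3.2-fold. Cdk1 (chr10:69170976-69188768, minus strand), their kinase, had levels of 130.1, 41.9 and 44.2 CPM in yHSC replicates 1 to 3, 48.7, 75.2 and 252 in Selp_low and 22.7, 71.8 and 149 in Selp_high. Cdc20 (chr4:118290098-118294549, minus strand), which directs the anaphase-promoting complex to cyclin B, had levels of 155, 71.99 and 83.4 CPM in yHSC replicates 1 to 3, 55.97, 87.4 and 268 in Selp_low and 49.2, 117 and 268 in Selp_high. Ube2c (chr2:164611818-164620742, plus strand), the ubiquitin-conjugating enzyme of that complex, had levels of 141, 39.03 and 44.2 CPM in yHSC replicates 1 to 3, 49.3, 129.8 and 372 in Selp_low and 14.9, 83.5 and 164 in Selp_high. Ube2c spanned 25.1-fold, the most of the 49 members, and its groups overlapped like those of the others. Opposite-strand genes with over 10% as many counts lie across Ccna2 and Cdc20. The Ube2c log2 fold change was -1.07 ± 0.95 (SE, adjusted p = 0.68) for Selp_high over Selp_low and 1.28 ± 0.82 (SE, adjusted p = 0.643) for Selp_low over yHSCs. The remaining Cdc25c, Plk1, Aurka and Aurkb were each lowest in Selp_high replicate 1 and ranged over 6.87-fold to 15.2-fold.

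Kinetochore and spindle checkpoint genes were likewise highest in Selp_low replicate 3 and lowest in Selp_high replicate 1 as a sum, at 651, 297 and 285 CPM in yHSC replicates 1 to 3, 279, 413 and 1146 in Selp_low and 127, 414 and 682 in Selp_high. All 8 were lowest in Selp_high replicate 1 under TMM scaling (7 with library totals alone), as Cenpa and Birc5 show. Cenpa (chr5:30824121-30832174, plus strand), the histone H3 variant of centromeres, was read at 116, 81.9 and 54.5 CPM in yHSC replicates 1 to 3, 77.8, 109 and 233 in Selp_low and 21.1, 71.8 and 108 in Selp_high. Birc5 (chr11:117740077-117746569, plus strand), the survivin subunit of the Aurora B complex, was read at 168, 39.6 and 35.9 CPM in yHSC replicates 1 to 3, 62.6, 80.9 and 302 in Selp_low and 22.6, 80.99 and 134 in Selp_high. Selp_high replicates 1 and 2 of Cenpa lay below all 3 Selp_low libraries, and replicate 3 fell between Selp_low replicates 1 and 2. Mad2l1 (chr6:66512374-66524204, plus strand), which holds Cdc20 back until chromosomes are attached, was read at 130.2, 48.3 and 54.5 CPM in yHSC replicates 1 to 3, 74.4, 106 and 242 in Selp_low and 41.3, 88.2 and 133 in Selp_high. Cenpe (chr3:134918298-134979372, plus strand), a kinetochore motor, was read at 44.9, 25.7 and 17.4 CPM in yHSC replicates 1 to 3, 12.3, 19.5 and 64.2 in Selp_low and 7.26, 19.8 and 39.5 in Selp_high. Both were highest in Selp_low replicate 3, and their groups overlapped. Selp_high over Selp_low, Cenpa had a log2 fold change of -1.07 ± 0.65 (SE, adjusted p = 0.543), Birc5 -0.91 ± 0.79 (SE, adjusted p = 0.673) and Mad2l1 -0.69 ± 0.57 (SE, adjusted p = 0.653). Bub1, Bub1b, Ttk and Cenpf ranged over 6.22-fold to 10.2-fold.

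Among the spindle motors and microtubule-binding genes, Stmn1 was the exception in pattern under TMM scaling. Stmn1 (chr4:134195631-134201154, plus strand) stood at 1430, 664 and 762 CPM in yHSC replicates 1 to 3, 986, 948 and 1604 in Selp_low and 717, 479 and 759 in Selp_high. On this scale all 3 Selp_high libraries lay below all 3 Selp_low libraries, and Selp_high overlapped with yHSCs. The Selp_high over Selp_low log2 fold change was -0.86 ± 0.36 (SE, adjusted p = 0.392), with an unadjusted p of 0.0469. With library totals alone the Selp_high and Selp_low libraries of Stmn1 overlapped, and its log2 fold change was -0.40. On that scale all 3 Selp_high libraries lay below all yHSC libraries instead, at a log2 fold change of -0.63. Kif23 (chr9:61823187-61854056, minus strand), a motor of the central spindle in cytokinesis, stood at 87.3, 54.4 and 80.5 CPM in yHSC replicates 1 to 3, 32.5, 21.3 and 103 in Selp_low and 20.8, 35.8 and 81.2 in Selp_high. Kif23 was lowest in Selp_high replicate 1 and Selp_low replicate 2 and between 80.5 and 103 CPM in yHSC replicates 1 and 3 and replicate 3 of both aged groups. Its log2 fold change was -0.73 ± 0.49 (SE, adjusted p = 0.884) for Selp_high over yHSCs. Kif11, Kif20a, Tpx2 and Nusap1 ranged over 7.60-fold to 11.7-fold.

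The proliferation markers and chromosome genes spanned the most as a group, 9.64-fold. Mki67 (chr7:135291513-135318090, minus strand) encodes Ki-67, the protein stained to tell cycling from resting cells, and was read at 55.95, 48.6 and 28.2 CPM in yHSC replicates 1 to 3, 22.7, 30.96 and 94.6 in Selp_low and 7.70, 62.4 and 94.5 in Selp_high. Top2a (chr11:98883769-98915015, minus strand), the topoisomerase that untangles sister chromosomes, was read at 149, 94.4 and 103 CPM in yHSC replicates 1 to 3, 42.6, 87.3 and 293 in Selp_low and 19.02, 130.2 and 214 in Selp_high. Selp_high replicate 1 was 2.95-fold below the next library for Mki67 and 2.24-fold below for Top2a, while Selp_high replicates 2 and 3 lay above all yHSC levels of Mki67. Hmgb2 (chr8:57964941-57969033, plus strand) was read at 1762, 512 and 548 CPM in yHSC replicates 1 to 3, 668, 826 and 2958 in Selp_low and 320.2, 424 and 1070 in Selp_high. Hmgb2 was lowest in Selp_high replicates 1 and 2, but replicate 3 exceeded Selp_low replicates 1 and 2. The Selp_high over Selp_low log2 fold change was -1.30 ± 0.73 (SE, adjusted p = 0.512) for Hmgb2, the largest of the 49 in size, -0.22 ± 0.94 (SE, adjusted p = 0.942) for Top2a and 0.15 ± 0.89 (SE, adjusted p = 0.959) for Mki67.

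The early and the late genes did not keep 1 ratio. The sum of Mcm2 to Mcm7 was 1643, 1825 and 2170 CPM in yHSC replicates 1 to 3, 965, 974 and 2796 in Selp_low and 1234, 1397 and 2558 in Selp_high. The sum of the 18 mitotic regulators and kinetochore genes was 1966, 750.5 and 817 CPM in yHSC replicates 1 to 3, 717, 1122 and 3488 in Selp_low and 384, 1184 and 2322 in Selp_high. Their ratio, in which the scaling of a library cancels, was 1.2, 0.411 and 0.377 in yHSC replicates 1 to 3, 0.743, 1.15 and 1.25 in Selp_low and 0.312, 0.848 and 0.908 in Selp_high. The helicase sum was lowest of its group in yHSC replicate 1, the library with the highest mitotic sum of that group. Selp_low replicates 1 and 2 had the lowest helicase sums of all 9 libraries and mitotic sums that lay above that of Selp_high replicate 1. The ratios of Selp_low and Selp_high overlapped, as did each with those of yHSCs. Within each of the 3 replicate numbers, which pair Selp_high with Selp_low as described below, the ratio was lower in Selp_high.

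**Figure D2:**
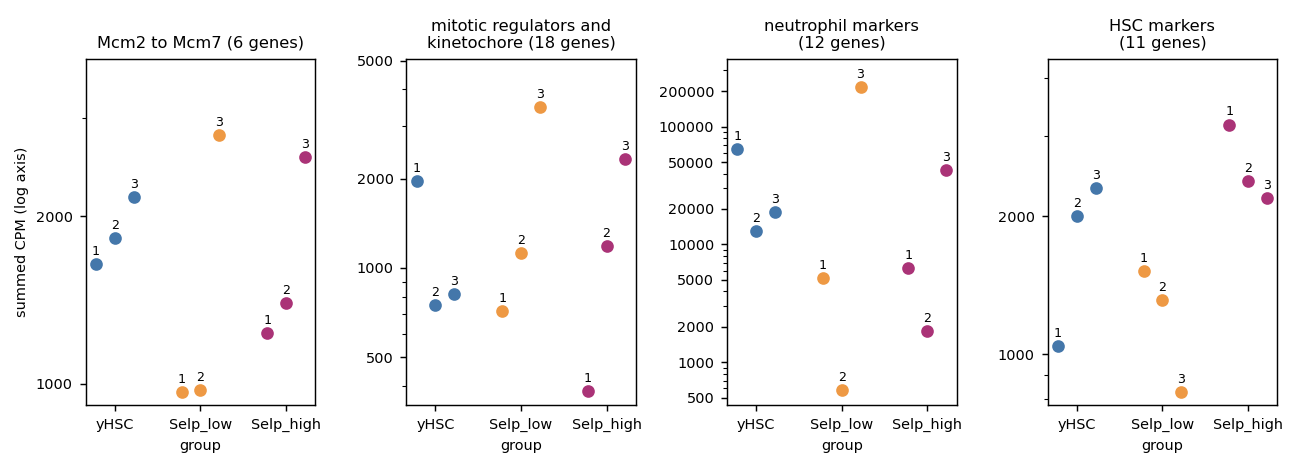
Summed CPM (log axes) in each library of Mcm2 to Mcm7, of the 18 mitotic regulator and kinetochore genes, of 12 neutrophil markers and of 11 HSC markers; each point is a library, numbered by replicate. The mitotic genes and the neutrophil markers are highest in yHSC replicate 1, Selp_low replicate 3 and Selp_high replicate 3 of their groups, and in Selp_low replicate 3 the HSC markers are lowest, at 827 CPM.

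Between Selp_high and Selp_low paHSCs, the cells that differ in surface P-selectin at 1 age, edgeR's test of 3 libraries against 3 called no member. DESeq2 with same-numbered libraries paired called Hmgb2, Ube2c and Cenpa lower in Selp_high, as given below. That fit called 9.17% of the 23271 genes it tested in either direction. It called 1158 of them lower, a share near that of the members, 3 of 49. A gene was called at an adjusted p of at most 0.05 with a log2 fold change of at least 1 in size, in edgeR's quasi-likelihood test. No member was called among 49 tested, and no gene among 20370 (0%). Selp, whose Selp_high libraries all lay above those of Selp_low, was not called either (log2 fold change 2.34 ± 0.60, SE, adjusted p = 0.338). The absence of a call therefore does not show that the groups were equal. At an unadjusted p under 0.05, 1 member (Stmn1) was lower and none higher, against 5.67% and 6.88% of all genes. Under TMM scaling 38 of 49 members had a negative value (Selp_high below Selp_low), against 55.2% of all genes, but 17 with library totals alone. The median was -0.27 on the log2 scale, beside -0.11 over all genes. The values ran from -1.30 (Hmgb2) to 0.35 (Mcm2), and the SE of a member was 0.353 to 1.1, with a median of 0.752. Of the members under TMM scaling, 1 (Stmn1) had all Selp_high libraries below all Selp_low libraries and none had them above, against 10.6% and 10.3% of all genes. With library totals alone no member had them below.

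The direction rested on single libraries and on the scaling. Without Selp_low replicate 3 the median became 0.67, with 41 of 49 members higher in Selp_high. In that setting 8 members had all Selp_high libraries above those of Selp_low and 1 had them below, against 17.2% and 20.3% of all genes. Without Selp_high replicate 3 it was -0.95, with 48 lower, and without Selp_high replicate 1 it was 0.11. With library totals alone as the scale it was 0.24, beside 0.37 over all genes, and with voom weights that count deviating libraries less it was 0.70, with 43 members higher. Leaving out the library of each group with the most neutrophil transcripts gave 0.11, and the neutrophil level as a covariate gave -0.03. DESeq2 called 0 members of 49, at 2.21% of the genes it tested, and 0 had an unadjusted p under 0.05. Voom called no gene (0%).

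**Figure D3:**
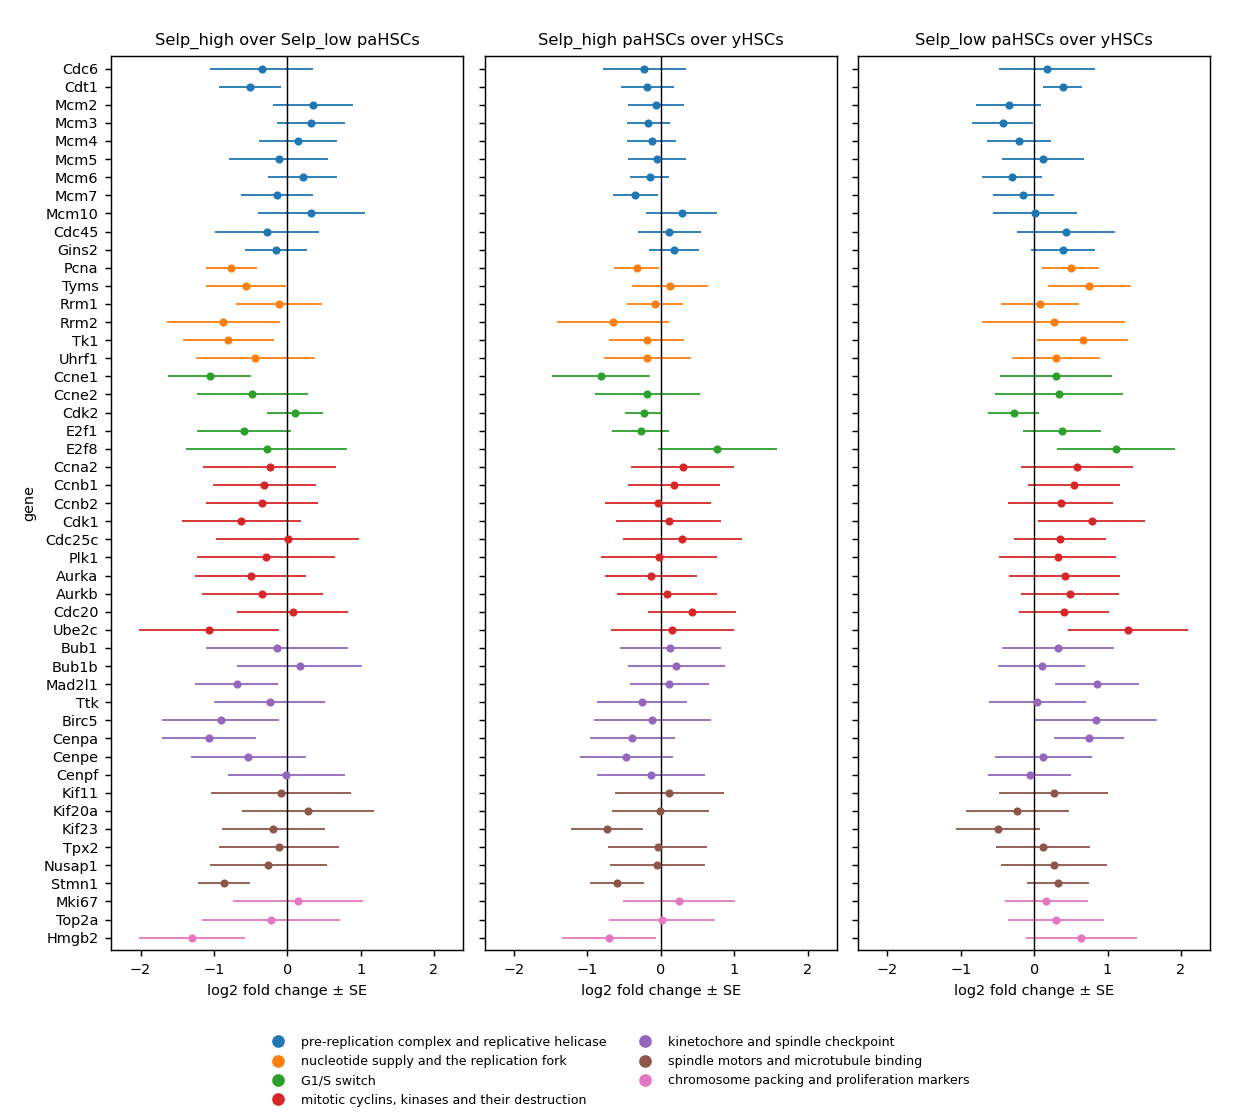
Log2 fold change of each of the 49 genes (points, coloured by role) with its SE (bars, 3 libraries against 3) in the 3 comparisons, from edgeR; the groups are shared between comparisons. Most bars cross 0, and the point farthest below 0 is Hmgb2 at -1.30 in Selp_high over Selp_low.

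Within replicate numbers, members kept 1 direction no more often than other genes. Same-numbered Selp_high and Selp_low libraries deviated together from their group means (r of 0.422, 0.417 and 0.446 for replicates 1 to 3 across 22594 genes). For numbers shared with yHSCs r was 0.099, 0.0649 and 0.0775 in Selp_low and -0.0919, -0.0992 and 0.0214 in Selp_high, under the minimum of 0.1 set for a pairing. Selp_high lay below Selp_low for 38 members within replicate 1, for 12 within replicate 2 and for 43 within replicate 3, against 55.8%, 48.2% and 53.3% of all genes. Of the 49 members, 11 were lower in all 3 pairs, a share below the 24.5% of all genes, and 4 (Mcm2, Mcm3, Mcm10 and Kif20a) were higher in all 3, against 21.6%. Hmgb2, Ube2c and Cenpa, which a paired fit called, were among the 11. Hmgb2 differed by -1.06, -0.96 and -1.47 on the log2 scale within replicates 1 to 3. Ube2c differed by -1.70, -0.63 and -1.18, and Cenpa by -1.86, -0.60 and -1.11. These pair differences are on the TMM scale, with factors of 0.545 for Selp_low replicate 2 and 1.19 for Selp_high replicate 2. Library totals alone would turn every replicate 2 difference of the members positive, also that of Stmn1, the lowest at -0.985 under TMM scaling. On that scale none of the 11, Hmgb2, Ube2c and Cenpa included, would stay lower in all 3 pairs. The share of all genes was not counted there. Unpaired, edgeR with library totals alone gave -0.82 for Hmgb2, -0.53 for Ube2c and -0.56 for Cenpa, against -1.30, -1.07 and -1.07 under TMM scaling. With the number as a block, edgeR called no member, at a lowest adjusted p of 0.129 (Hmgb2) and with 9 genes called in all (0.0442%), while 9 members had an unadjusted p under 0.05, all lower, against 7.94% of all genes lower and 10.1% higher in that fit. DESeq2 with the same block, tried after the data were seen, called Hmgb2 (log2 fold change -1.18, adjusted p = 0.000342), Ube2c (-1.19, adjusted p = 0.00312) and Cenpa (-1.21, adjusted p = 0.00541) lower in Selp_high, when 9.17% of the 23271 genes it tested were called. Stmn1 passed its adjusted p there (0.027) but not the fold minimum, at -0.85. These 3 calls were lost without the block, where DESeq2 gave adjusted p of 0.415, 0.659 and 0.517 at log2 fold changes of similar size, -1.31 for Hmgb2, -1.09 for Ube2c and -1.09 for Cenpa.

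**Figure D4:**
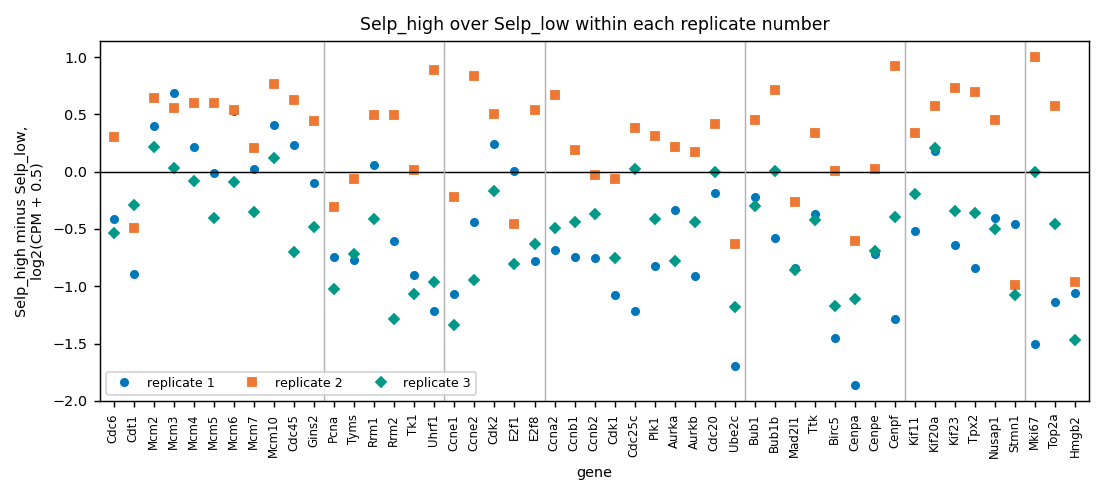
Difference of each of the 49 genes between the Selp_high and the Selp_low library of the same replicate number, in log2(CPM + 0.5), with genes in role order and vertical lines between roles. On this TMM scale replicate 2 lies above 0 for 37 genes, replicates 1 and 3 below 0 for 38 and 43.

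Against young cells, no member was called in either aged population by these fits to all 3 libraries a group. In Selp_high over yHSCs 0 of 49 members were called, when 33 of 20017 genes were (0.165%). None had an unadjusted p under 0.05, against 4.48% of all genes higher and 3.11% lower, and the lowest adjusted p was 0.864 (Stmn1). The median was -0.06, beside -0.03 over all genes, with 18 members higher and 31 lower. The extremes were Ccne1 at -0.81 and E2f8 at 0.77. Under TMM scaling no member had all Selp_high libraries above or below all yHSC libraries, which 8.52% and 5.28% of all genes did. With library totals alone Stmn1 had them below, and the share of all genes was not counted on that scale. Without yHSC replicate 1 the median was 0.40 and without Selp_high replicate 3 it was -0.62. Voom weights gave 0.51 and the neutrophil covariate 0.43. No member was called by voom, DESeq2 or DESeq2 with the replicate block, which called 1.37%, 2.99% and 3.7% of the genes they tested.

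In Selp_low over yHSCs 0 of 49 members and 0 of 20437 genes were called (0%), and none of the members had an unadjusted p under 0.05, against 7.11% of all genes higher and 4.17% lower. Positive values stood beside 40 of the 49 under TMM scaling, but 10 with library totals alone, with a TMM median of 0.32 against 0.08 over all genes. The members ran from Kif23 at -0.49 to Ube2c at 1.28, and the lowest adjusted p was 0.643. Under TMM scaling no member separated the groups, against 9.59% of all genes with Selp_low above and 6.74% below. With library totals alone Mcm6 and Cdk2 had all Selp_low libraries below all yHSC libraries, and the share of all genes was not counted on that scale. Without Selp_low replicate 3 the median was -0.77, with 42 members lower and 13 of them at an unadjusted p under 0.05, against 5.54% of all genes lower in that fit. Without yHSC replicate 1 it was 0.72. Library totals alone gave -0.26, beside -0.47 over all genes, and voom weights -0.13. Voom, DESeq2 and DESeq2 with the block called 2.11%, 2.89% and 2.64% of genes and no member. With 2 libraries a group, those richest in neutrophil transcripts left out, Mcm2 (log2 fold change -1.21, adjusted p = 0.0411) and Mcm3 were called lower in Selp_low, when 7.12% of 20359 genes were called. Since the libraries of every group enter 2 comparisons, the 3 sets of fold changes are not independent.

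**Figure D5:**
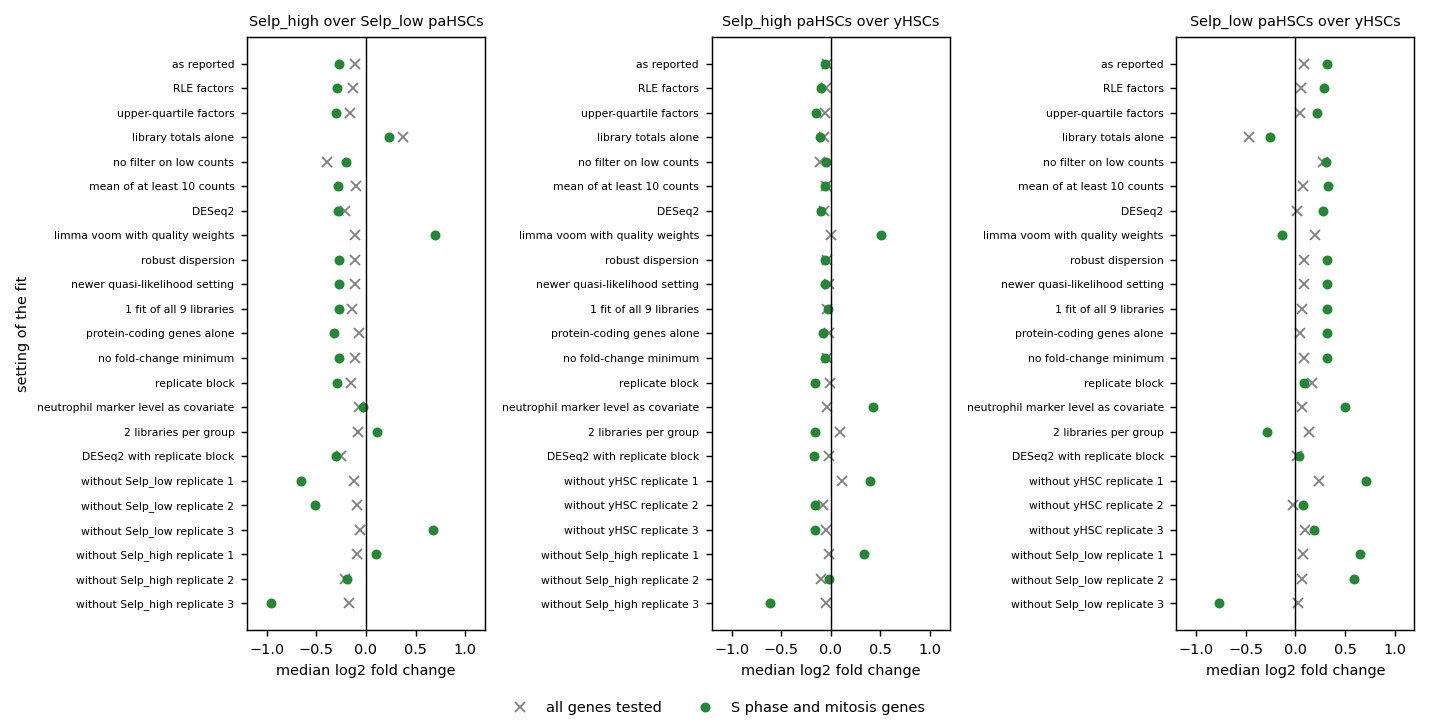
Median log2 fold change of the 49 genes (green points) and of all genes tested (grey crosses) in each comparison, under each setting of the fit. In Selp_high over Selp_low the green points run from -0.95 to 0.70 and change side when Selp_low replicate 3 is left out, while leaving out a library moves the grey crosses less.

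Of the other genes of the cycle, taken from fixed lists, edgeR with the settings above called none, while DESeq2 called 2 G1 genes, Ccnd1 (log2 fold change 1.59, adjusted p = 0.0275) and Cdkn1c (1.73, adjusted p = 0.0465), higher in Selp_high than in yHSCs. DESeq2 with the replicate block called Cks2 (-1.28, adjusted p = 0.000136) lower and Cdkn1c (2.03, adjusted p = 2.69e-06) higher in Selp_high than in Selp_low. The DESeq2 fits without and with the block called 2.99% and 9.17% of the genes they tested in those comparisons. Under TMM scaling 12 of 40 further S phase genes were higher and 28 lower in Selp_high than in Selp_low, with a median of -0.31. Of 48 further mitosis genes, 12 were higher and 36 lower, with a median of -0.24. Of all genes 55.2% were lower, with a median of -0.11. Both lists were read in the same libraries as the members and also had their highest sums in Selp_low replicate 3, at 5255 and 5929 CPM. The direction of the members rested on that library and on the scaling, as given above. Over yHSCs the medians of both lists were -0.17 and -0.02 in Selp_high and 0.20 and 0.28 in Selp_low, and edgeR called 0 in each. Over all genes those medians were -0.03 and 0.08. Cks2, a Cdk1 partner, was read at 146, 61.5 and 66.5 CPM in yHSC replicates 1 to 3, 79.8, 231 and 499.9 in Selp_low and 36.1, 111 and 164 in Selp_high. Its log2 fold change was -1.38 ± 0.76 (SE, adjusted p = 0.505) for Selp_high over Selp_low and 1.56 ± 0.69 (SE, adjusted p = 0.462) for Selp_low over yHSCs, and the groups overlapped. The 15 G1 cyclins, CDK inhibitors and pocket proteins had a median of 0.07 for Selp_high over Selp_low, with 8 higher and 7 lower. Cdkn1c, which encodes the CDK inhibitor p57, was read at 11.9, 10.8 and 16.3 CPM in yHSC replicates 1 to 3, 17.01, 4.74 and 9.29 in Selp_low and 80.5, 27.7 and 23.6 in Selp_high. All 3 Selp_high libraries were above the other 6, and the log2 fold changes were 2.07 ± 0.65 (SE, adjusted p = 0.338) over Selp_low and 1.74 ± 0.51 (SE, adjusted p = 0.383) over yHSCs. Of all genes, 10.3% had every Selp_high library above those of Selp_low and 8.52% above those of yHSCs. Ccnd1, cyclin D1, was read at 6.63, 4.47 and 5.96 CPM in yHSC replicates 1 to 3, 13.6, 4.15 and 7.01 in Selp_low and 14.4, 26.4 and 12.1 in Selp_high. Selp_high lay above yHSCs in all libraries but overlapped with Selp_low, at a log2 fold change of 1.61 ± 0.41 (SE, adjusted p = 0.297) over yHSCs.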

How the data were processed

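RNA of sorted HSCs was extracted with RNeasy, converted with a SMARTer Ultra Low kit and made into libraries with TruePrep; no molecular identifiers are described. Per the labels' processing notes, the authors used CASAVA 1.8, HISAT2 2.2.1, featureCounts 2.0.6 and DESeq2 1.42.0 with mm39; which annotation release and strand setting were used, and how multi-mapping reads were treated, is not given in the sources used here. Deposited values are raw counts per gene, and gene coordinates are those of the deposited table. For 9 members (Mcm7, Cdc45, Gins2, Ccne2, E2f8, Ccna2, Cdc20, Kif20a, Nusap1) a gene on the opposite strand overlaps and held at least 10% as many counts, so their reads may be shared.

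Pairwise edgeR 4.0.16 quasi-likelihood fits (R 4.3.3, filterByExpr, TMM, Benjamini-Hochberg over all genes tested) gave fold changes, and DESeq2 1.42.0 and limma 3.58.1 voom were alternatives. The scripts were required to recover known changes in simulated data with little spread between libraries. That does not measure their power at the spread seen here. Genes with values in all libraries were 12 fixed by name, plus in each role the most abundant per length, the largest changes and those whose groups did not overlap; those of other lists were the largest changes. Members and lists were chosen with earlier results of these data known. Same-numbered Selp_high and Selp_low libraries correlated over 0.1 in every pair; the labels do not say what a number marks.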

Additional observations from a re-analysis of the deposited data

How the results depend on the processing

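Under 22 other settings in each comparison edgeR's, DESeq2's or voom's calls of the 49 genes stayed at 0, except DESeq2 with the replicate block in Selp_high over Selp_low (3) and 2 libraries per group in Selp_low over yHSCs (2); both settings were added after the data were seen. The medians kept their sign in 17 of 22, 18 of 22 and 18 of 22 settings. Among these, 1 setting, no fold-change minimum, reused the reported fit, so its median could not differ. Leaving out 1 library each gave medians of -0.95 to 0.67 in Selp_high over Selp_low, -0.62 to 0.40 in Selp_high over yHSCs and -0.77 to 0.72 in Selp_low over yHSCs, where the other mitosis genes ran from -0.76 to 0.72. It gave 0 to 8, 0 to 4 and 0 to 10 members with the first group above the second in every library, and 1 to 7, 0 to 12 and 0 to 19 below it. Over all genes the shares were 11.8% to 17.2%, 9.97% to 14.4% and 11% to 26.4% above, and 13.1% to 22.3%, 6.44% to 16.1% and 7.49% to 21.6% below. The 12 members arose without Selp_high replicate 3 (24.5%, against 9.6% of all genes) and the 19 without Selp_low replicate 3 (38.8%, against 15.1%). Library totals alone, with every library kept, gave 0, 1 and 2 below, and the share of all genes was not counted on that scale. The 1 was Stmn1, whose Selp_high libraries lay below Selp_low under TMM scaling but below yHSCs there. The cause of these separations was not tested, and with 2 libraries against 3 separation is easier by construction. With the replicate block, which pairs Selp_high with Selp_low, edgeR's median was -0.29 and changed no call of a member, and over yHSCs the block gave -0.16 and 0.08. Of the further lists, DESeq2 with the replicate block called 1 mitosis gene (Cks2) and 1 G1 gene (Cdkn1c) in Selp_high over Selp_low and 1 G1 gene (Cdkn1c) in Selp_high over yHSCs, where no filter on low counts gave 1 and DESeq2 gave 2. The 2 libraries per group gave 4 S phase genes (Pole, Lig1, Chaf1a and Dnmt1, lower) and 1 mitosis gene (Pttg1, higher) in Selp_low over yHSCs. Over all genes these fits called 9.17%, 3.7%, 1.14%, 2.99% and 7.12%, in that order. Over all genes the calls in the 3 comparisons were 0, 33 and 0 by edgeR and 582, 605 and 519 by DESeq2. Each of the 49 genes had 90 counts or more in every library, and 3 libraries per group with their spread set the SEs.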
